A study of Mus musculus with 8 samples.

Results

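Many mouse genes carry names that record only where their transcript was first found, such as Tex (testis expressed), Spata (spermatogenesis associated) and Tsga (testis-specific gene antigen). These genes were chosen by symbol from the gene table: Tex or Spata followed by a digit, any Tsga name, and the tetraspanin gene Tspan8. The rule used no measured value. It found 34 of the 18097 genes in the table, namely 14 Tex, 15 Spata and 4 Tsga genes and Tspan8. A gene was analysed when 4 or more of the 8 arrays gave it a detection p-value below 0.01, in a comparison with negative control beads. This kept 21 of the 34 (12 Tex, 6 Spata and 3 Tsga genes), among 8324 genes kept in all. Spata19, detected on 4 arrays, lay just inside this limit and Tspan8, detected on 2, just outside. Spata16 and Spata4, detected on 2 XEOSry arrays, met the limit through the 4 XEZ2OSry arrays.

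Shared names do not mean shared function. Some of the encoded proteins act in meiosis, others build the acrosome, tail or head-tail junction of the sperm, and several work in general cell processes such as lipid transfer or protein turnover. Meiotic germ cells pass through pachytene, when homologous chromosomes are fully paired and genes of later sperm formation begin to be transcribed, while the X chromosome of male spermatocytes is silenced (meiotic sex chromosome inactivation, MSCI). Genes of the set on the X chromosome therefore lie on a chromosome that is silenced at this stage, whereas genes on autosomes do not.

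RNA came from whole testes of MF1-background males at 17.5 dpp (days post partum), 1 male per Illumina BeadChip array. All males had an XO karyotype and the transgenes Sry and Eif2s3y, so that no group had a Y chromosome. XEOSry males (4 arrays) had no Zfy gene, and XEZ2OSry males (4 arrays) had a Zfy2 transgene in addition. The comparison asks how the absence of Zfy2 alters the testis transcriptome. The animal identifiers in the labels share their first part among all 4 XEOSry males, and no XEZ2OSry male has it, though 2 of the XEZ2OSry males share another. Any cohort these stand for cannot be told apart from genotype.

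The arrays were similar in breadth, with 8132 to 8434 genes detected on an XEOSry array and 8063 to 8282 on an XEZ2OSry array. Zfy2 itself could not check the labels, because it was detected on 0 arrays, at 6.05 to 6.20 in XEOSry and 6.15 to 6.19 in XEZ2OSry on the log2 scale. Of the 4 measured spermatid markers, 1 was kept, and Acrv1, Prm1 and Tnp2 were detected on no array. All 9 measured markers of pachytene spermatocytes were kept. Of the 7 measured markers of earlier meiotic cells, 4 were kept, and Sycp3 and Dmc1 were detected on no array.

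Promoters of 4 members are shown because they hold 1 of the short words searched and because 2 of the genes had large differences between the genotypes and 2 had almost none. The words were AACTGNC (MYB-like), GTTGCC (RFX half-site), TGACGTCA (CRE) and CACGTG (E-box), searched on both strands of windows of 300 bases (250 before and 50 after each gene's start) from RefSeq, GRCm38.p6. Printed are the 250 bases before the start, 5′ to 3′ on the gene's strand, with the words in capitals. Spata16 (chr3:26637381-26637630, plus strand) holds 2 E-boxes, Spata4 (chr8:54600531-54600780, plus strand) holds an RFX half-site ending at the last base before the start, Tex14 (chr11:87404815-87405064, plus strand) holds 2 MYB-like words and Tsga14 (now Cep41, chr6:30693750-30693999, minus strand) holds 2 RFX half-sites.
Spata16: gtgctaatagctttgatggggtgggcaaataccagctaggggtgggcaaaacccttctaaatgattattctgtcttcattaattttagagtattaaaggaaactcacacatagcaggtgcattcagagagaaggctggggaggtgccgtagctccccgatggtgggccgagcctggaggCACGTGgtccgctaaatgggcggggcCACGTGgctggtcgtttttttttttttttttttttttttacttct
Spata4: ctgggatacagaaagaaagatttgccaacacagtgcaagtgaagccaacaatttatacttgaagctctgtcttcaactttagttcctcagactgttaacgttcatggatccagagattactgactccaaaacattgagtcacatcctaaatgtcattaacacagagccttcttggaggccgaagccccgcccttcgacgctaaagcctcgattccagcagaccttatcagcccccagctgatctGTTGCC
Tex14: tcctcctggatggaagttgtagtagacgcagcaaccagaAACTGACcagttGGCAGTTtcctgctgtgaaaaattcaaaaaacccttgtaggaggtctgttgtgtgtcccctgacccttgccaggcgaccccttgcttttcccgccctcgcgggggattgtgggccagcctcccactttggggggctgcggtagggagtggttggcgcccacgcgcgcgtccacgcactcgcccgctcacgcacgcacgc
Tsga14: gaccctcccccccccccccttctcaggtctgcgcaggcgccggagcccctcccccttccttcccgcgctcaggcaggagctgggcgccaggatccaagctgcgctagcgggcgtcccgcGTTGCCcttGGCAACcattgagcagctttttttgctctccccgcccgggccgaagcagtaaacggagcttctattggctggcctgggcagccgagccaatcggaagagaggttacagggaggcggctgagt

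Of the 21 analysed members, 19 had a window in the RefSeq table and 2, Tex11 and Tex22, were named only. Some members had more than 1 window, which made 24 windows. The MYB-like word was in 3 of these 24 windows, of Spata19, Spata7 and Tex14, against 12.8% of all 32851 windows. The RFX half-site was in 3 of the 24, of Spata4, Tex9 and Tsga14, against 12.5% of all windows. The E-box was in 2 of the 24, of Spata16 and Tex10 (7.15% of all windows), and the CRE in 1, of Spata7 (1.79%). A match is a description of these letters only. The RFX half-site was shared by Spata4, which differed between the genotypes by more than 1.5-fold, and Tsga14, which had the smallest difference of all members.

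No member passed limma's test over all 8324 genes (adjusted p of 0.114 to 0.966), and 5 genes outside the set did (0.0601% of genes). At an unadjusted p under 0.05, limma gave 7 members lower in XEOSry, against 12% of all genes kept, and 3 members higher, against 12.9%. The 3 higher members are all X-linked, and 49.1% of X-linked genes kept were higher at this threshold. By size, 6 members were lower in XEOSry by more than 1.5-fold, against 6.63% of all genes kept. These include Spata16 and Spata4, which met the detection limit through the XEZ2OSry arrays where they were high. Among the 17 members detected on all 8 arrays, 2 were lower with no overlap, against 4.32% of the 6903 genes under that filter. Of the same 17, 3 were lower by more than 1.5-fold, a size for which the share over all genes was not counted. In the other direction, 2 members were higher by more than 1.5-fold, against 0.973% of all genes kept. Both, Tex11 and Tex16, are X-linked, and 15.4% of X-linked genes kept were higher by this much. The genotypes did not overlap in 3 members that were lower (4.58% of all genes kept) and in 0 that were higher (6.34%). Among X-linked genes kept, 21.1% were higher with no overlap, against 0 of the 4 X-linked members. Without XEZ2OSry animal 4, Spata16 and Tex2 passed limma's test (adjusted p = 0.0393 and 0.0387), where 6.23% of all genes kept passed, and 6 members were lower with no overlap, against 13.9% of all genes kept. Without XEOSry animal 2 or XEZ2OSry animal 3, the members higher by more than 1.5-fold numbered 0. The matching share over all genes was not counted for these omissions.

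The members did not shift together. Their median difference was -0.13 on the log2 scale (XEOSry minus XEZ2OSry throughout), beside 0.07 over all genes kept. It was -0.06 without XEOSry animal 3 and -0.19 without XEZ2OSry animal 4, and with no filter on detection the 34 genes had a median near 0, at -0.003. Of the 21, 13 had a lower mean in XEOSry and 8 a higher one, against 38% lower and 62% higher among all genes kept. All 4 X-linked members were higher, as were 97.2% of the 285 X-linked genes kept. Their median was 0.51, beside 0.36 over those genes. Of the 17 autosomal members, 13 were lower, against 39.2% of the 7651 autosomal genes kept. Their median was -0.28, beside 0.06 over the autosomal genes kept. Both values include Spata16, Spata4 and Spata19, which were kept mainly through XEZ2OSry arrays, so the filter itself favours lower members here. Over the members detected on all 8 arrays, X-linked ones included, the median was -0.01, beside 0.08 over all genes under that filter. The 6 analysed Spata genes had a lower mean in XEOSry, but Spata16, Spata4 and Spata19 were kept mainly through XEZ2OSry arrays, and the 3 detected on all arrays had a median of -0.13. Of the 12 Tex genes, all detected on every array, 7 were higher and 5 lower.

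**Figure D1:**
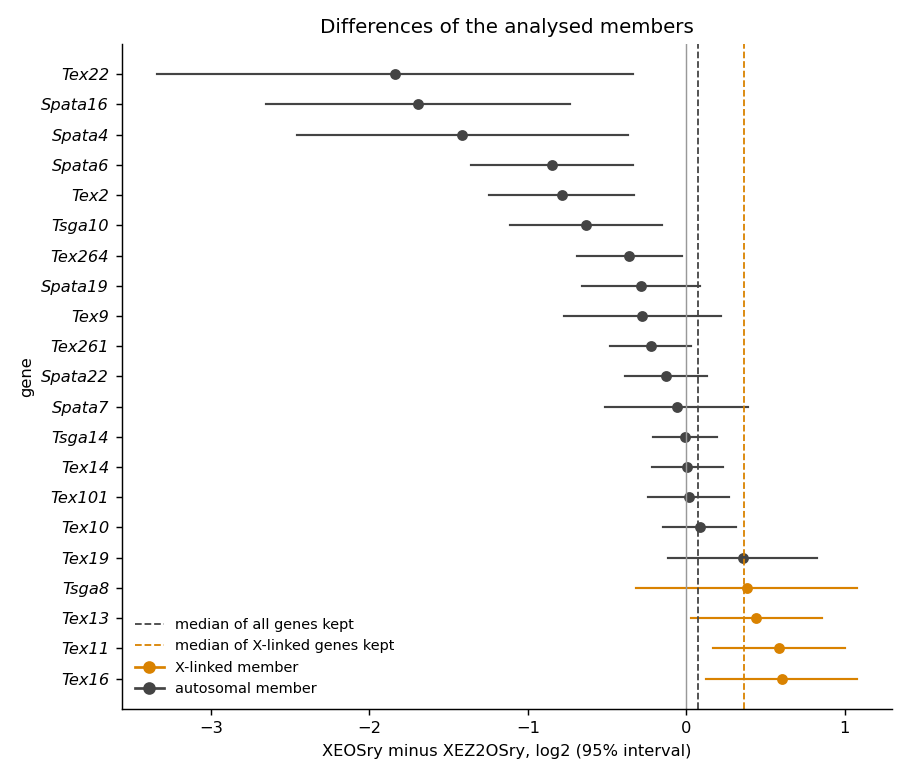
Log2 difference of each analysed member, XEOSry minus XEZ2OSry, with its 95% interval from limma; dashed lines give the medians of all genes kept and of X-linked genes kept. The 4 X-linked members lie at the bottom, from 0.38 to 0.60, and the 6 autosomal members at the top lie from -1.84 to -0.63.

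The largest negative differences included genes of sperm structure. Spata16 encodes a protein of the Golgi apparatus and the forming acrosome, the vesicle over the sperm nucleus. Its log2 signal was 7.70, 6.41, 6.58 and 7.76 in XEOSry animals 1 to 4, against 8.81, 9.64, 8.93 and 7.83 in XEZ2OSry animals 1 to 4. Every XEOSry value lay below every XEZ2OSry value, by a narrow margin between XEOSry animal 4 and XEZ2OSry animal 4. The difference was -1.69 (standard error 0.424, 95% interval -2.65 to -0.74, adjusted p = 0.114 from limma), or 3.23-fold higher in XEZ2OSry. Spata16 was detected on 2 of 4 XEOSry arrays, so that animals 2 and 3 stood at background. In bulk testis RNA, fewer cells of a type and less RNA per cell cannot be told apart.

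Tex22 had the largest difference among the members. Its log2 signal was 9.04, 6.73, 6.92 and 9.27 in XEOSry, against 10.02, 10.86, 9.81 and 8.61 in XEZ2OSry. The genotypes overlapped, since XEOSry animals 1 and 4 lay above XEZ2OSry animal 4. The mean was 7.99 ± 1.35 in XEOSry and 9.83 ± 0.928 in XEZ2OSry (SD, n = 4 each), a difference of -1.84 (95% interval -3.34 to -0.33, adjusted p = 0.149). The difference exceeded 1 SD of either genotype but not the range within either, which was 2.54 in XEOSry and 2.25 in XEZ2OSry. Tex22 was detected on every array, with signals in XEOSry animals 2 and 3 not far above background. Among all genes kept its difference was the 46th lowest.

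In Spata4 too, XEOSry animals 1 and 4 lay above 2 and 3. It was at 7.93, 6.53, 6.38 and 7.59 in XEOSry, against 8.76, 9.52, 8.21 and 7.58 in XEZ2OSry, with the genotypes overlapping at XEZ2OSry animal 4. The difference was -1.41 (standard error 0.462, adjusted p = 0.131), and detection held on 2 of 4 XEOSry arrays against 4 of 4 XEZ2OSry arrays. With signals near background in XEOSry animals 2 and 3, a log2 difference can understate how far the levels differ.

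Spata6 encodes a protein that in the mouse is needed to form the connecting piece between sperm head and tail. Its signal was 9.79, 9.06, 8.93 and 9.73 in XEOSry, against 10.28, 10.60, 10.12 and 9.91 in XEZ2OSry, with no overlap. The difference was -0.85 (95% interval -1.36 to -0.34, adjusted p = 0.117), or 1.80-fold higher in XEZ2OSry. Tex2, whose protein transfers lipids at contact sites of the endoplasmic reticulum, was at 8.09, 7.60, 7.74 and 8.08 in XEOSry, against 8.67, 9.14, 8.68 and 8.17 in XEZ2OSry. Its genotypes did not overlap either, and the difference was -0.79 (95% interval -1.24 to -0.33, adjusted p = 0.114). Both genes were detected on every array, unlike Spata16 and Spata4.

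Tsga10 encodes a protein of the sperm tail. It was at 8.15, 7.74, 7.42 and 7.99 in XEOSry, against 8.66, 8.86, 8.27 and 8.03 in XEZ2OSry. Only XEOSry animal 1 lay above XEZ2OSry animal 4, and the difference was -0.63 (adjusted p = 0.133). It was not detected in XEOSry animal 3.

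**Figure D2:**
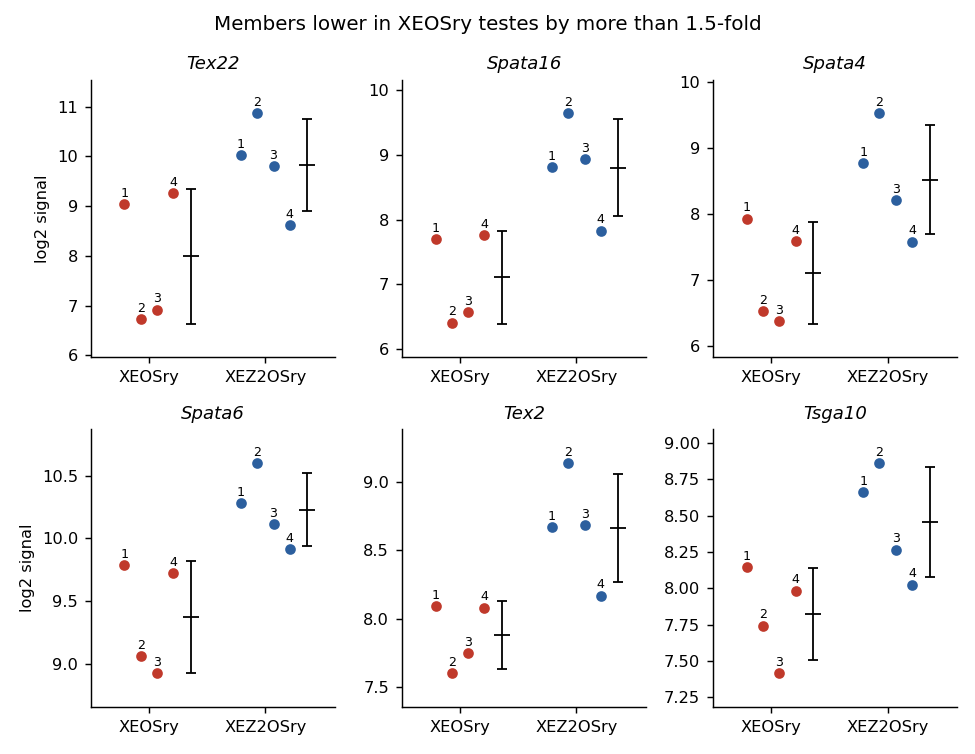
Log2 signal on each array for the 6 members lower in XEOSry by more than 1.5-fold (numbers are animals, bars the mean and SD of 4 arrays; each panel has its own axis, which does not start at 0). Animals 2 and 3 are the lowest of XEOSry in all 6, and in XEZ2OSry animal 2 is the highest and animal 4 the lowest in all 6.

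The 6 genes shared a coarse pattern over the animals, though not the full order. In XEOSry, animals 1 and 4 lay above animals 2 and 3 in 6 of 6, and in XEZ2OSry animal 2 was the highest in 6 of 6. Both patterns were common outside the set. Among the 552 genes kept that were lower in XEOSry by more than 1.5-fold, animals 1 and 4 lay above 2 and 3 in 90.8%, and XEZ2OSry animal 2 was the highest in 91.5%.

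The markers of pachytene spermatocytes had this pattern too, with XEOSry animals 1 and 4 above 2 and 3 and XEZ2OSry animal 2 the highest. Their mean log2 signal was 11.27, 9.66, 10.04 and 11.66 in XEOSry, against 12.14, 12.57, 12.21 and 11.37 in XEZ2OSry, and 9 of 9 kept markers were lower in XEOSry, with a median difference of -1.42. Their summed level on the linear scale ran from 18542 to 61819 in XEOSry and from 51102 to 86842 in XEZ2OSry. Sertoli cell markers, from the somatic cells that support germ cells, were higher in XEOSry in 5 of 5 kept, with a median of 0.23, and their summed level ran from 39077 to 53309 in XEOSry and from 26768 to 54575 in XEZ2OSry. Spermatogonial markers were higher in 2 of 3 kept (median 0.44), but their mean over the 3 did not separate the genotypes. It was 9.46, 9.57, 9.82 and 9.91 in XEOSry, against 9.49, 9.27, 9.91 and 10.10 in XEZ2OSry. Markers of macrophages were higher in 2 of 2 (median 0.32) and those of peritubular myoid cells in 2 of 2 (median 0.29), whereas those of erythrocytes were lower in 3 of 3 (median -0.10). Markers of earlier meiotic cells were higher in 3 of 4 (median 0.10) and those of Leydig cells in 2 of 4 (median -0.04). The 1 spermatid marker kept was lower (-0.10). Among all genes kept, 62% were higher in XEOSry and 38% lower. The part of these marker shifts in the members' differences was not tested.

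**Figure D3:**
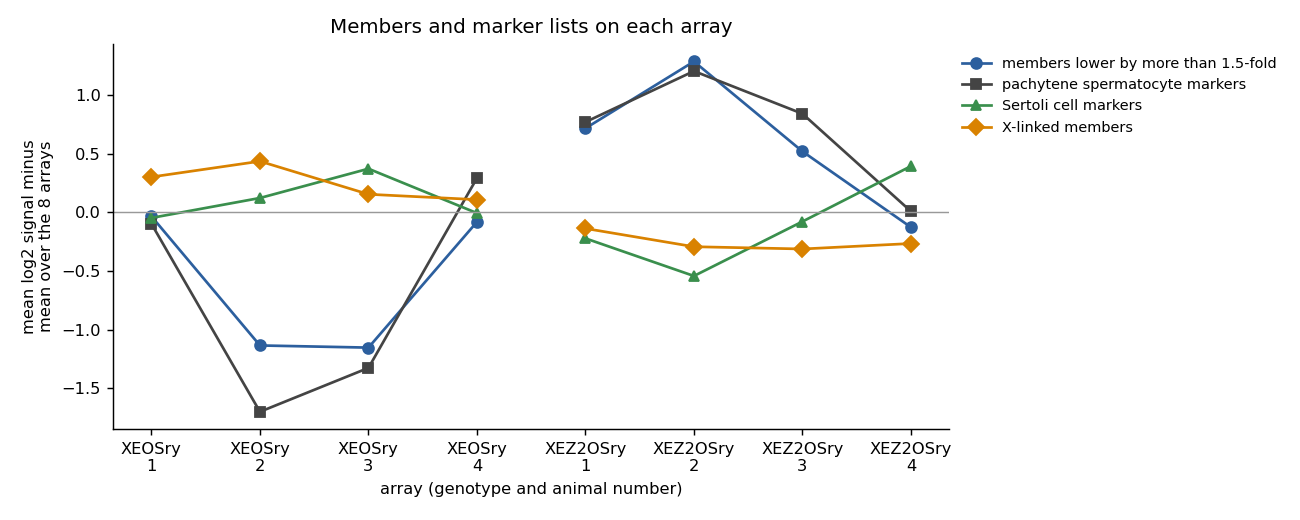
Mean log2 signal minus the mean over the 8 arrays, on each array, for the 6 members lower by more than 1.5-fold, the pachytene spermatocyte markers, the Sertoli cell markers and the 4 X-linked members. The 6 lower members and the pachytene markers are lowest in XEOSry animals 2 and 3 and highest in XEZ2OSry animal 2, whereas the X-linked members lie above 0 on every XEOSry array and below 0 on every XEZ2OSry array.

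Of the X-linked members, Tex11, a gene of meiotic recombination and synapsis, was at 10.64, 11.08, 10.67 and 10.21 in XEOSry, against 10.30, 9.89, 9.85 and 10.21 in XEZ2OSry. Animals 1, 2 and 3 of XEOSry lay above all animals of XEZ2OSry, and animal 4 overlapped. The difference was 0.59 (95% interval 0.169 to 1.004, adjusted p = 0.129). Without animal 4 of XEOSry it was 0.73 and passed (adjusted p = 0.0483 from limma), as did 4.76% of all genes kept. Without animal 2 of XEOSry it was 0.44 (adjusted p = 0.301).

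Tex16 was at 10.27, 10.66, 10.14 and 9.68 in XEOSry, against 9.95, 9.54, 9.27 and 9.59 in XEZ2OSry. XEOSry animal 4 again lay within the range of the XEZ2OSry animals. The difference was 0.60 (95% interval 0.12 to 1.08, adjusted p = 0.144), the 66th highest among all genes kept. Tex13 (now Tex13b) was at 8.61, 9.18, 9.07 and 8.76 in XEOSry, against 8.56, 8.10, 8.34 and 8.85 in XEZ2OSry, a difference of 0.44 (adjusted p = 0.179). Both Tex13 and Tex16 were detected on every array.

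Tsga8, known in the mouse as a gene of haploid germ cells, had a different order of animals. It was at 10.52, 9.65, 9.58 and 10.62 in XEOSry, against 9.48, 10.12, 10.12 and 9.13 in XEZ2OSry. In XEOSry, animals 1 and 4 lay above 2 and 3, as in the autosomal genes above and unlike Tex11 and Tex16. Its difference was 0.38 with a wide interval (-0.32 to 1.08, adjusted p = 0.456).

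**Figure D4:**
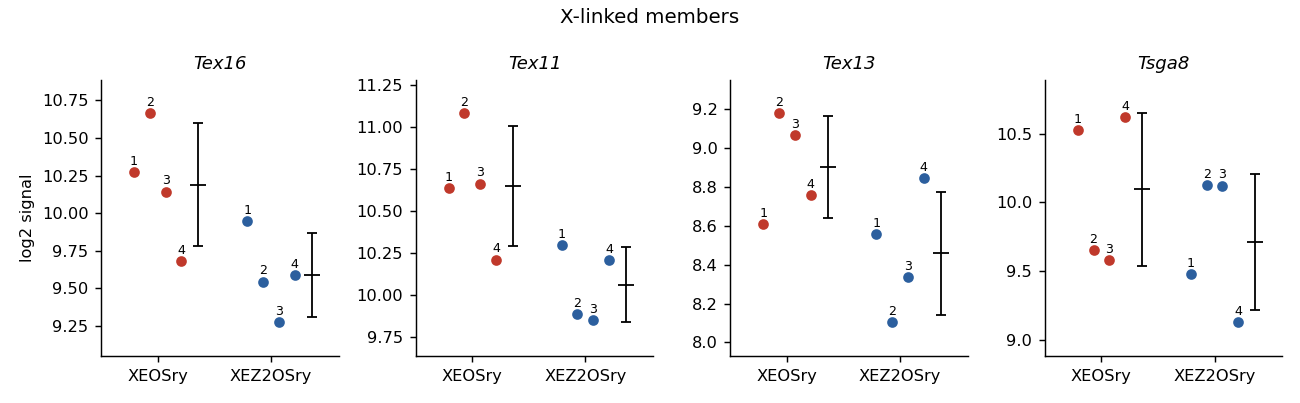
Log2 signal on each array for the 4 X-linked members (numbers are animals, bars the mean and SD of 4 arrays; each panel has its own axis, which does not start at 0). XEOSry animal 2 is the highest in Tex11, Tex16 and Tex13, whereas in Tsga8 XEOSry animals 1 and 4 are the highest.

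Several bright members had small differences. Tex101, a surface protein of germ cells, was the brightest member at 11.08, 11.001, 10.92 and 11.34 in XEOSry, against 11.18, 11.01, 11.16 and 10.93 in XEZ2OSry. Its difference was 0.01 (95% interval -0.24 to 0.27). Tex14, which holds the bridges between germ cells open, was at 10.05, 10.15, 10.20 and 10.13 in XEOSry, against 10.27, 10.23, 10.002 and 9.98 in XEZ2OSry, a difference of 0.01 (95% interval -0.21 to 0.23). Both intervals contain 0, and neither reaches 0.30 in size.

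Tsga14, whose protein is a centrosomal protein of the cilium, was at 8.44, 8.61, 8.46 and 8.52 in XEOSry, against 8.57, 8.63, 8.46 and 8.39 in XEZ2OSry, a difference of -0.01. Tex9 was at 10.59, 10.43, 9.72 and 10.28 in XEOSry, against 10.73, 10.93, 10.23 and 10.25 in XEZ2OSry, a difference of -0.28 (adjusted p = 0.445). Neither separated the genotypes.

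Tex264, a receptor for the turnover of endoplasmic reticulum, was at 8.78, 8.86, 9.28 and 9.36 in XEOSry, against 9.36, 9.31, 9.55 and 9.49 in XEZ2OSry, a difference of -0.36 (adjusted p = 0.177). Tex19 (now Tex19.1), which acts against transposons in germ cells, was at 9.96, 10.39, 10.63 and 10.39 in XEOSry, against 9.83, 9.55, 10.09 and 10.48 in XEZ2OSry, a difference of 0.35 (adjusted p = 0.305). It was the only autosomal member above 0.30. Of the remaining members, Spata19, a gene of sperm mitochondria, differed by -0.29 and was detected on 1 XEOSry and 3 XEZ2OSry arrays. Tex261 differed by -0.23, Spata22, a gene of meiotic recombination, by -0.13, Spata7 by -0.06 and Tex10, a component of ribosome assembly, by 0.08.

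The 13 members that were not analysed were near background. They were Spata1, Spata17, Spata2, Spata20, Spata21, Spata2L, Spata3, Spata5, Spata9, Tex15, Tex24, Tsga13 and Tspan8. Of these, 10 were detected on no array, Spata20 and Spata2L on 1 XEZ2OSry array each, and Tspan8 on 2. Tspan8 was at 6.83, 6.61, 6.75 and 6.55 in XEOSry, against 6.55, 6.50, 6.60 and 6.47 in XEZ2OSry, and was detected in XEOSry animals 1 and 3. These values stand close to the background of the arrays.

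Genes known to act with the members were counted apart. Of 36 such genes, 32 were in the table and 22 were kept. None passed limma's test. At an unadjusted p under 0.05, 4 were lower (18.2%, against 12% of all genes kept) and 2 higher (9.09%, against 12.9%). With no overlap, 2 were higher (9.09%, against 6.34%) and 0 lower (against 4.58%). By mean, 13 of the 22 were higher and 9 lower, and their median difference was 0.08, beside 0.07 over all genes kept. Adam3, a sperm surface gene whose protein depends on Tex101, was at 9.30, 6.66, 6.95 and 9.24 in XEOSry, against 10.72, 11.64, 10.50 and 9.05 in XEZ2OSry, a difference of -2.44 (adjusted p = 0.122). Adam3 is also on the list of pachytene markers.

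Odf2, a component of sperm tail fibres set beside Tsga10, was at 9.29, 8.14, 8.22 and 9.40 in XEOSry, against 10.11, 10.72, 10.11 and 9.09 in XEZ2OSry, a difference of -1.25 (adjusted p = 0.129). In both, as in Spata16, XEOSry animals 1 and 4 lay above 2 and 3, and XEZ2OSry animal 2 was the highest and animal 4 the lowest. In contrast, Kif23, a kinesin of the bridges held by Tex14, was higher in every XEOSry animal, at 9.05, 9.22, 9.28 and 9.02, against 8.77, 8.61, 8.54 and 8.77 in XEZ2OSry, a difference of 0.47 (adjusted p = 0.108). Rbck1, an enzyme of linear ubiquitin chains set beside Spata2, was also higher in every XEOSry animal (0.25, adjusted p = 0.147).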

How the data were processed

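Total RNA of whole testes was hybridized to Illumina mouse BeadChip arrays, 1 male per array and 4 per genotype, as the labels give it (the study's methods give a smaller number). Quantile normalization was done by the authors, whose deposited table gives 1 log2 value per gene and array. Beside it stands the deposited detection p-value. They also deposited linear signal intensities, whose array medians of 105.5 to 106.3 show them to be aligned between arrays already. The processing notes of the submitters name GenomeStudio 2011.1. A deposited series table holds identical log2 values.

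Genes with a detection p-value under 0.01 on at least 4 arrays were kept and compared by linear models (limma 3.58.1, R 4.3.3, moderated by eBayes) with a single genotype term, two-sided, with Benjamini-Hochberg adjustment over all 8324 genes and a threshold of 0.05. Animals are the replicates, and 4 arrays per genotype limit the precision. The script was tested on simulated data. Alternatives changed the filter, the background correction, the scaling, the block, the variance model, the array weights and single animals. Chromosomes came from RefSeq, GRCm38.p6, by symbol or synonym. Tables and plots used Python 3.11.15, pandas 2.3.3, numpy 2.4.6 and matplotlib 3.10.9.

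Every analysed member may be named. Values on every array are given for the 12 largest differences, the X-linked members, the 3 brightest, the 3 smallest differences, Tspan8 and the Tsga genes. The members, gene lists and promoter words were chosen with earlier results of these data known. A Tex gene left out of the rule is not reported here.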

Additional observations from a re-analysis of the deposited data

Results flagged for a closer look

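Tspan8, a tetraspanin gene that did not pass the filter on detection, was detected on 2 XEOSry arrays and on no XEZ2OSry array, at log2 signals of 6.47 to 6.83 over all 8 arrays. No difference was tested. Of the 42 groups of 4 arrays (21 members in each genotype), none held an animal set apart from the other three by the gap-to-range criterion for 4 samples, where chance marks about 1 in 20 groups.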

How the results depend on the processing

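No member passed in the main analysis or with normexp correction, quantile normalization alone, the series table values, arrays centred on their median, a variance trend or any of the 3 other filters. The series table values are identical to the main ones, so that run could not differ. Since the deposited signals were already aligned between arrays, rescaling them could change little. With array weights 3 passed, Spata16, Spata6 and Tex2 (adjusted p = 0.0388, 0.0482 and 0.0391), among 626 genes (7.52%), and leaving out 1 animal gave 0 to 2, namely Tex11 without XEOSry animal 4 and Spata16 and Tex2 without XEZ2OSry animal 4. These omissions also raised the calls over all genes to 396 (4.76%) and 519 (6.23%). Leaving out 1 animal gave 1 to 4 members higher at an unadjusted p under 0.05 and 0 to 2 higher by more than 1.5-fold. With no overlap, 0 to 2 were higher and 3 to 6 lower, the latter against 4.91% to 13.9% of all genes kept. Without XEOSry animal 2 or XEZ2OSry animal 3, 0 members were higher by more than 1.5-fold and 1 was higher at an unadjusted p under 0.05. With detection on all 8 arrays, 17 members remained, with 4 lower at an unadjusted p under 0.05 and 3 lower by more than 1.5-fold, and the median difference was -0.01. With no filter it was -0.003, and leaving out 1 animal gave -0.19 to -0.06. Under these alternatives, shares over all genes were not counted for the unadjusted p, the 1.5-fold size or the higher members with no overlap. For these counts, a change in the members therefore cannot be told from a change in all genes.

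The labels do not state that replicate numbers pair the animals, whereas the study's methods call the XEZ2OSry controls matched. Deviations from the genotype mean, over all genes kept, correlated at 0.43, -0.23, 0.33 and -0.42 between same-numbered animals. With 4 animals per genotype, these values cannot settle whether the animals were paired. With the replicate number as a block, 0 members passed limma's test, against 0.012% of all genes kept. With this block, 6 members were lower and 2 higher at an unadjusted p under 0.05. For these 2 counts at the unadjusted p, the matching shares over all genes were not counted. Signs turned only in members near 0. Leaving out 1 animal gave -0.191 to 0.0662 for Spata7, -0.0687 to 0.0698 for Tex101, -0.0393 to 0.0564 for Tex14 and -0.0483 to 0.0317 for Tsga14, and array weights gave -0.0448 for Tex101 and -0.0224 for Tex14. The causes were not tested. Signals near background limit Spata16, Spata4, Spata19, Tex22 and, on 1 array, Tsga10.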
